A study of Mus musculus with 6 samples.

Results

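Splenic fibroblast and matrix genes are described here, a set of 45 genes for collagens, other proteins of the extracellular matrix, the enzymes that process them, and the receptors and contractile proteins of the cells that make them. Members were chosen by gene symbol on an Illumina mouse expression array, and only probes with a detection p-value below 0.05 on 3 or more of the 6 arrays entered the test. Of the 45 members, 42 had at least 1 probe of that symbol and 33 had a tested probe, among 9158 tested genes in all. The 3 members without a matched probe, Col6a3, Fbn1 and Fn1, were not analysed here. The study compared whole spleen RNA from 3 samples labelled Rag2/pfp KO, which lack Rag2, a recombinase subunit needed to assemble antigen receptor genes, and the perforin gene Prf1 (pfp), with 3 labelled Wild type. Strain, age and sex were not given by the labels, nor do they say that replicates are different animals. The p-values therefore reflect the spread among these 6 arrays, part of which may be technical.

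Fibroblasts of the spleen build a net of reticular fibres that carries the white pulp and the red pulp cords, and a collagen-rich capsule with trabeculae. Fibrillar collagens give tensile strength, basement membranes of collagen IV, laminin and nidogen ensheathe vessels, sinuses and reticular fibres, and elastic fibres with contractile cells let the capsule and trabeculae stretch and shorten. Lymphocytes and these stromal cells depend on each other for signals that shape the white pulp.

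Between 12084 and 13149 probes were detected per array, and median raw signal ran from 142 to 164. Wild-type arrays correlated at 0.982 to 0.990 and knockout arrays at 0.939 to 0.965 across tested probes, which are not independent replicates. Knockout array 2 stood apart in sex-linked transcripts. Its 2 Xist probes read 7.04 and 7.16 log2 against 7.98 to 9.62 on the other 5 arrays, and its Eif2s3y probe read 8.73 and was detected on no other array. Knockout array 1 correlated least with the wild-type arrays, at 0.914 to 0.928. Of the targeted genes, Rag2 had no tested probe, and 2 Prf1 probes differed by 0.19 ± 0.16 and 0.32 ± 0.29 log2 (SE), neither called (limma adjusted p = 0.633 and 0.646). Where these probes lie relative to the deleted part is not given in the sources used here, so they check nothing about the labels. B cell and T cell markers separated the groups, with 7 of 7 tested B cell genes and 8 of 10 tested T cell genes lower in the knockout.

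Knockout and wild-type spleens were then compared for the matrix genes. No member passed the test in either direction, against 3.84% of all 9158 tested genes, 1.18% higher and 2.66% lower (limma, Benjamini-Hochberg adjusted p under 0.05). Over single probes the share was 3.62%, and none of the 41 tested member probes passed. Values below are the authors' log2 values, which are quantile-normalized between arrays, and a difference is knockout minus wild type on that log2 scale. Of the 33 tested members 16 lay above 0 and 17 below, and their median difference was -0.02 log2, beside 0.02 over all tested genes. The differences ran from -0.74 for Dcn to 0.66 for Col5a1, and no member reached a difference of 1 log2, a 2-fold change, which 325 of all tested genes did. Where a gene had several tested probes, the one with the highest mean over the arrays stands for it. In whole-spleen RNA, fewer cells of a type and less RNA per cell cannot be told apart.

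With 3 arrays per group, the median SE of a difference was 0.25 log2 over the members and 0.18 over all tested genes. The 95% interval of the difference lay inside a 2-fold change either way for 27 of the 33 members, and inside 0.5 log2 either way for 4. The other 6 were Col6a1, Col18a1, Dcn, Lox, Loxl1 and Pdgfra, whose intervals reached past 1 log2 on 1 side. At an unadjusted p under 0.05 there was 1 member, Col5a1, whereas 19% of all tested genes had such a p. Knockout and wild-type arrays were fully separated for 2 members, Col5a1 and Col18a1, both higher in the knockout, against 25.5% of all tested genes in either direction and 13.2% with all knockout values above.

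**Figure D1:**
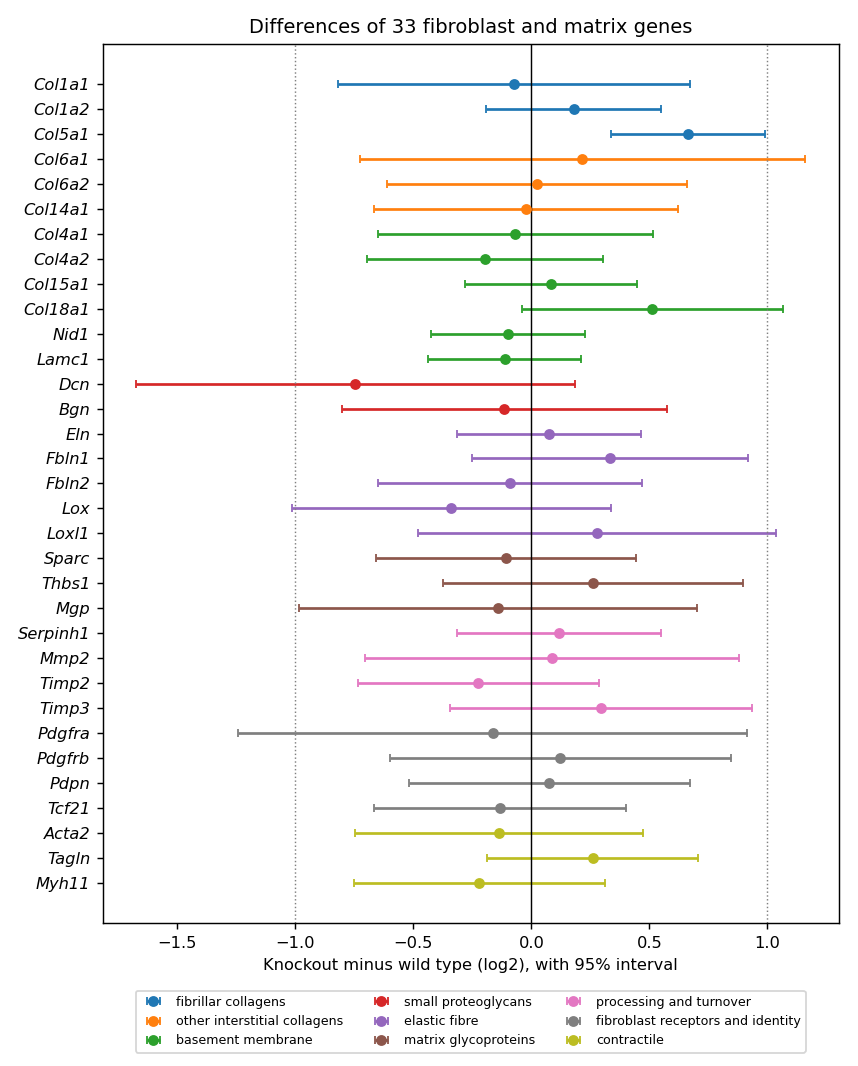
Difference between knockout and wild type (log2, horizontal axis) for the 33 tested genes, coloured by role. Points are limma estimates, bars are 95% intervals, and dotted lines mark a 2-fold change; the interval of Col5a1 lies above 0 and that of Dcn reaches to -1.67.

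Among fibrillar collagens, Col5a1, which encodes a chain of collagen V that nucleates collagen fibrils, differed most. Col5a1 read 11.34, 11.04 and 11.08 log2 on knockout arrays 1 to 3 and 10.61, 10.40 and 10.47 on wild-type arrays 1 to 3. All knockout values lay above all wild-type values, and the spread was small in both groups, 11.16 ± 0.16 against 10.49 ± 0.10 (SD, n = 3). The difference of 0.66 ± 0.14 log2 (SE), with a 95% interval of 0.34 to 0.99, had a limma adjusted p of 0.0509 and did not pass the threshold. It passed in 3 alternatives, at adjusted p = 0.0488 without the detection filter, 0.0467 with detection on at least 1 array and 0.0305 with array weights. It did not pass in the others, where the adjusted p reached 0.466. The difference was 0.37 log2 without between-array normalization (adjusted p = 0.466), 0.45 with median centring (adjusted p = 0.310) and 0.71 after background correction (adjusted p = 0.126). The window around its annotated start in RefSeq (GRCm38.p6, chr2:27886175-27886474, plus strand, 250 bases before to 50 after the start) is shown because Col5a1 lay nearest to the threshold. Capitals mark the letters GGGCGG on either strand.
Col5a1: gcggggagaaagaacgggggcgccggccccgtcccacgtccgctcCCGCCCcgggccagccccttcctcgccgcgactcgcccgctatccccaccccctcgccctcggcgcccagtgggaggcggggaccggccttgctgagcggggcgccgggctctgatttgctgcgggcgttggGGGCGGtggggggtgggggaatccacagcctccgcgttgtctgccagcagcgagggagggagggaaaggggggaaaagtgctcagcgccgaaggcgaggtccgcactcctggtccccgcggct
The window held 2 such matches and had a GC content of 75%, where the median over 32851 windows of the same length was 52.7%. GGGCGG, searched on both strands, stood in 35.7% of all windows and in 18 of the 32 windows of 27 members.

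The chains of collagen I, the main fibrillar collagen of fibroblasts, lay nearer to 0. Col1a1 read 8.51, 9.17 and 7.85 log2 on knockout arrays 1 to 3, against 8.80, 8.40 and 8.54 on the wild-type arrays. Its wild-type values fell inside the range of the knockout values, and the difference of -0.07 ± 0.32 log2 (SE) had a 95% interval of -0.82 to 0.67 (limma adjusted p = 0.944). Col1a2, detected on 4 of the 6 arrays, 2 in each group, differed by 0.18 ± 0.16 log2 (limma adjusted p = 0.643). Col3a1, whose product is abundant in reticular fibres, had 1 probe detected on 1 array and another on none, and the Col5a2 probe was detected on none, so these members were not tested.

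Collagen VI, which forms beaded microfilaments around cells, was represented by Col6a1 and Col6a2. Col6a1 read 9.13, 10.87 and 10.19 log2 on knockout arrays 1 to 3 and 9.62, 10.01 and 9.90 in wild type. Knockout array 1 was the lowest and knockout array 2 the highest of all 6 arrays, so that the groups overlapped fully. The difference was 0.22 ± 0.40 log2 (SE; limma adjusted p = 0.857), and the other tested Col6a1 probe differed by 0.06 ± 0.29. Col6a2 and Col14a1, a collagen attached to the surface of fibrils, differed by 0.02 and -0.02 log2.

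Of the 6 tested basement membrane genes, Col18a1 differed most and the others lay within -0.20 to 0.08 log2. Col4a1 and Col4a2, which encode the 2 chains of the common collagen IV trimer, lie head to head on opposite strands of chromosome 8. By annotation Col4a1 starts at position 11312826 and Col4a2 at 11312805, so the first bases of the 2 transcripts overlap. Their RefSeq promoter windows (GRCm38.p6, Col4a1 at chr8:11312777-11313076 on the minus strand, Col4a2 at chr8:11312555-11312854 on the plus strand) share 78 bases, and the annotated start sites lie 21 bases apart. Both are printed, 5′ to 3′ on the strand of each gene, with the shared bases in capitals, to show the region from which both transcripts start.
Col4a1: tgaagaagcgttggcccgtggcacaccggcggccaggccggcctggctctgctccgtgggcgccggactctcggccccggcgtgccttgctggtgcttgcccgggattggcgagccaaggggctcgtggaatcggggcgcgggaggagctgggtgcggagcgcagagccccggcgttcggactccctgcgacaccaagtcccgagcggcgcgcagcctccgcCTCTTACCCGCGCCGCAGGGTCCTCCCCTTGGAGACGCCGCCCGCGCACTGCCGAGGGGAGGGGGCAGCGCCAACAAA
Col4a2: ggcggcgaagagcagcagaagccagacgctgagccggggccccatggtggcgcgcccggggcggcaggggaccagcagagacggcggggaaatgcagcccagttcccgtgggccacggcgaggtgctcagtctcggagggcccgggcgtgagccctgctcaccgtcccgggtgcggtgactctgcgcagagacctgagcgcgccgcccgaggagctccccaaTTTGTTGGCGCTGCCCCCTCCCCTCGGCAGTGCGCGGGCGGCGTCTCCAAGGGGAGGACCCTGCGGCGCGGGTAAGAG
Each window held 1 CCAAT on either strand, a motif found in 37.4% of all windows and in 10 of the 32 member windows. A match of letters is no evidence that a factor binds there.

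The 2 collagen IV transcripts ranked the arrays alike at both ends. Col4a1 read 11.19, 11.82 and 10.90 log2 on knockout arrays 1 to 3, against 11.55, 11.42 and 11.13 on the wild-type arrays. Col4a2 read 10.54, 11.17 and 10.39 log2 on knockout arrays 1 to 3, against 10.95, 10.93 and 10.80 on the wild-type arrays. Knockout array 2 was highest and knockout array 3 lowest for both, with the wild-type values between them. The same arrays held both ends for Col1a1, Col6a2 and Lamc1, which lie on other chromosomes. The differences were -0.07 ± 0.25 log2 for Col4a1 and -0.20 ± 0.21 for Col4a2 (SE; limma adjusted p = 0.932 and 0.719).

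Col18a1, which encodes the basement membrane collagen that releases endostatin, was the other member without overlap. Col18a1 read 9.99, 10.02 and 10.80 log2 on knockout arrays 1 to 3, against 9.81, 9.87 and 9.59 on the wild-type arrays. Knockout array 3 was clearly the highest, and the other knockout arrays lay just above the wild-type arrays. Its difference of 0.51 ± 0.24 log2 (SE) did not pass (limma adjusted p = 0.316). The second tested Col18a1 probe differed by 0.09 ± 0.13 with overlapping groups, so the probes did not show the same pattern. Col15a1, Nid1, the nidogen that links laminin to collagen IV, and Lamc1, a laminin chain, differed by 0.08, -0.10 and -0.11 log2. The laminin chains Lama4 and Lamb1 were detected on no array.

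The small proteoglycans, which bind fibrils and growth factors, held the deepest difference of the set. Dcn, decorin, read 9.56, 11.26 and 10.39 log2 on knockout arrays 1 to 3, against 10.98, 11.42 and 11.04 on the wild-type arrays. Knockout arrays 1 and 3 lay below every wild-type array, and knockout array 2 lay within the wild-type range. The difference of -0.74 ± 0.40 log2 (SE) had a 95% interval of -1.67 to 0.18 and did not pass (limma adjusted p = 0.394). The second Dcn probe read 7.40 to 7.62 in the knockout and 7.73 to 7.91 in wild type, without overlap, and differed by -0.28 ± 0.13 (limma adjusted p = 0.315). The Dcn difference was -1.17 log2 without knockout array 2 (limma adjusted p = 0.0692) and -0.32 without knockout array 1 (limma adjusted p = 0.536). Bgn, biglycan, read 12.59, 13.74 and 13.57 log2 on knockout arrays 1 to 3, against 13.44, 13.52 and 13.29 on the wild-type arrays, with knockout array 1 alone below the rest, and differed by -0.11 ± 0.29 (SE). Lum, lumican, was detected on no array.

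Elastic fibre genes were spread on both sides of 0. Loxl1, an oxidase that crosslinks elastin, read 9.65, 10.995 and 10.65 log2 on knockout arrays 1 to 3, against 10.08, 10.26 and 10.12 on the wild-type arrays. Knockout array 1 lay below and knockout arrays 2 and 3 above every wild-type array, and the difference was 0.28 ± 0.32 log2 (SE; limma adjusted p = 0.743). Lox, the related crosslinking oxidase, read 7.32, 7.54 and 8.26 log2 on knockout arrays 1 to 3, against 8.16, 8.35 and 7.63 on the wild-type arrays. The groups overlapped, with a difference of -0.34 ± 0.29 log2 (SE; limma adjusted p = 0.626). The fibulin genes Fbln1 and Fbln2 differed by 0.33 and -0.09 log2, and Eln, elastin itself, by 0.07. The Fbln5 probe was detected on no array.

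Of the matrix glycoproteins, Sparc, a collagen-binding protein that platelets also carry, read 11.02, 11.34 and 10.57 log2 on knockout arrays 1 to 3, against 11.39, 11.03 and 10.82 on the wild-type arrays. The groups overlapped on this probe and on the second Sparc probe, and the difference was -0.11 ± 0.23 log2 (SE; limma adjusted p = 0.880). Thbs1, thrombospondin 1, another protein of platelet granules, read 8.23, 7.34 and 7.26 log2 on knockout arrays 1 to 3, against 7.53, 7.37 and 7.15 on the wild-type arrays. Only knockout array 1 was raised, and Thbs1 was detected on 4 arrays, 2 in each group. Its difference of 0.26 ± 0.27 log2 (SE) did not pass (limma adjusted p = 0.706). All 8 tested platelet markers lay above 0, at a median of 0.78 log2, with Gp9 called (limma adjusted p = 0.0492). That call was lost after background correction (adjusted p = 0.0721), where no platelet marker was called. Summed platelet levels were 17563 to 23289 in the knockout and 10359 to 15142 in wild type. The mean of these markers was 0.55 log2 above its wild-type level on knockout array 1, 0.78 on array 2 and 0.89 on array 3, and their part in Sparc and Thbs1 was not tested. Mgp, matrix Gla protein, an inhibitor of calcification, read 8.74, 10.28 and 9.43 log2 on knockout arrays 1 to 3, against 9.45, 9.81 and 9.60 on the wild-type arrays, with knockout arrays at both ends. Sparcl1 was detected on 1 array and Postn, periostin, on none.

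All 4 genes of collagen folding and matrix turnover were tested. Timp2, an inhibitor of matrix metalloproteinases, read 11.38, 12.10 and 12.11 log2 on knockout arrays 1 to 3, against 12.16, 12.15 and 11.95 on the wild-type arrays. Only knockout array 1 lay apart, at the low end, and the difference was -0.22 ± 0.22 log2 (SE; limma adjusted p = 0.681). Timp3, the inhibitor that stays bound to the matrix, read 10.33, 11.42 and 11.19 log2 on knockout arrays 1 to 3, against 10.66, 10.76 and 10.62 on the wild-type arrays. Knockout arrays 2 and 3 lay above and knockout array 1 below the narrow wild-type range, with a difference of 0.29 ± 0.27 log2 (SE; limma adjusted p = 0.660). Without knockout array 1 it was 0.62 log2 and the adjusted p was 0.0569. Mmp2, the gelatinase of fibroblasts, read 8.69, 10.16 and 9.37 log2 on knockout arrays 1 to 3, against 9.27, 9.42 and 9.25 on the wild-type arrays, again with knockout arrays at both ends. Serpinh1, the collagen chaperone HSP47, differed by 0.12 ± 0.18 log2 (SE).

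The receptors and the transcription factor that mark fibroblasts were detected on all 6 arrays. Pdgfra, the receptor for platelet-derived growth factors on fibroblasts, read 8.89, 10.46 and 10.77 log2 on knockout arrays 1 to 3, against 9.95, 10.43 and 10.25 on the wild-type arrays. Knockout array 1 lay far below the wild-type arrays, and the other knockout arrays lay just above them. The difference of -0.16 ± 0.46 log2 (SE) had the widest error of the set (limma adjusted p = 0.908). Tcf21, a transcription factor that spleen development needs in mice, differed by -0.13 log2, Pdgfrb, the receptor of pericytes and reticular cells, by 0.12, and Pdpn, podoplanin of T zone reticular cells, by 0.08. None passed the test.

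Contractile genes mark smooth muscle of vessels and trabeculae and the myofibroblasts of the cords. Acta2, smooth muscle actin, read 12.99, 14.06 and 13.37 log2 on knockout arrays 1 to 3, against 13.71, 13.59 and 13.52 on the wild-type arrays on its brightest probe. Knockout array 2 was the highest and knockout arrays 1 and 3 the lowest, with a difference of -0.14 ± 0.26 log2 (SE; limma adjusted p = 0.861). Its 3 other tested probes differed by -0.21, -0.16 and 0.05 log2, and knockout array 2 read above knockout array 1 on all 4. Tagln, transgelin, read 7.96, 8.65 and 8.24 log2 on knockout arrays 1 to 3, against 8.09, 8.03 and 7.95 on the wild-type arrays, and differed by 0.26 ± 0.19 (SE; limma adjusted p = 0.565). Myh11, smooth muscle myosin, differed by -0.22 log2, and the Cnn1 probe, for calponin, was detected on no array. Serum response factor drives such genes through CArG boxes, so the Acta2 window is shown (RefSeq, GRCm38.p6, chr19:34255324-34255623, minus strand, printed 5′ to 3′ on the gene's strand). Capitals mark CArG boxes, CC and GG around 6 bases of which at most 1 is not A or T, and the letters TATANA, where N is any base.
Acta2: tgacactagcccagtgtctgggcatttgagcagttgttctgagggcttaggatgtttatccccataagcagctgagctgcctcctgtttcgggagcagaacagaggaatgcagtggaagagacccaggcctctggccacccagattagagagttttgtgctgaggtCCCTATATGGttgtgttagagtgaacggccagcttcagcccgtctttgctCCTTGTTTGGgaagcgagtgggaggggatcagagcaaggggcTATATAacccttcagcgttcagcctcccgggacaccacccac
The CArG matches lie at positions -84 to -75 and -34 to -25 and TATANA at 9 to 14, counted from the annotated start. These looser motifs were chosen after the exact CArG box had given no match in this window. At least 1 such CArG match stood in 9.98% of all windows and in 6 of the 32 member windows, and TATANA in 24.7% of all windows and 3 member windows, each searched on both strands. An exact CArG box stood in 1.63% of all windows and in 0 of the 32 member windows.

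**Figure D2:**
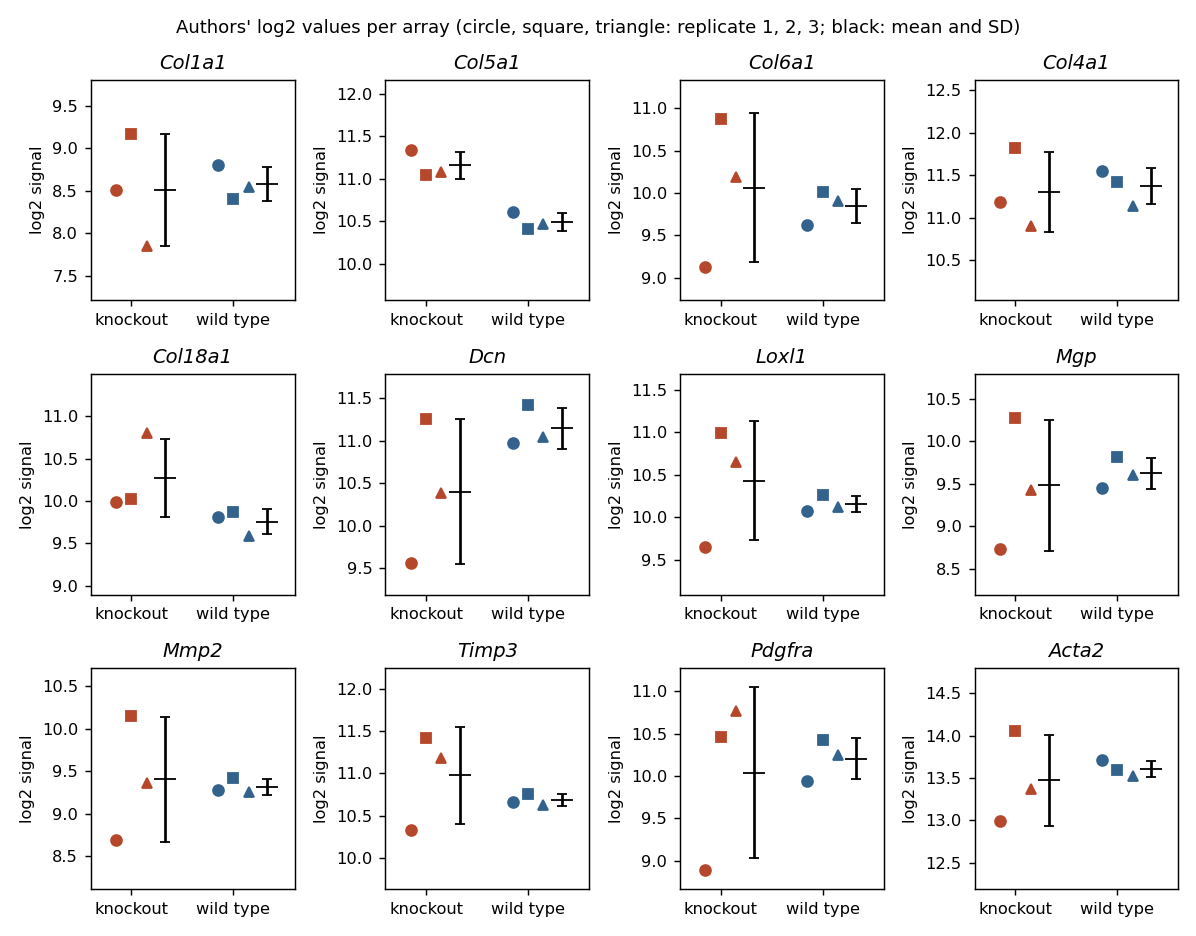
Authors' log2 values on each array (vertical axis, the same span in every panel) for 12 of the tested genes, knockout in red and wild type in blue, with circle, square and triangle for replicates 1 to 3 and black bars for mean and SD. Knockout replicates 1 and 2 lie at opposite ends of the knockout values in most panels, and Col5a1 is the panel with tight, separate groups. Over all 33 members, replicate 2 was the highest and replicate 1 the lowest knockout value for 16, beside 21.8% of all tested genes.

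The members were spread widely among the knockout arrays. Of the 33 members, 31 read higher on knockout array 2 than on knockout array 1, by a median of 0.66 log2, whereas 54.1% of all tested genes did, with a median of 0.05. The gap was at least 1 log2 for 11 members, from 1.01 for Pdpn to 1.74 for Col6a1, and 9.21% of all tested genes had a gap of that size in either direction. Col6a1, Dcn (1.70), Pdgfra (1.57), Mgp (1.54) and Mmp2 (1.47) had the widest gaps. Only Thbs1, at -0.89, and Col5a1, at -0.30, were higher on knockout array 1. These are single arrays of 1 group, so the gap has no replicate check. The same arrays also differed in sex-linked transcripts, with Xist probes at 8.56 and 9.29 log2 on array 1 and 7.04 and 7.16 on array 2, and Eif2s3y at 6.92 and 8.73. The part of this difference in the gap was not tested. Col1a1, Col4a2, Mgp and Mmp2 were given in full after their values had been seen.

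Knockout array 2 was the highest of all 6 arrays for 20 members, beside 21.8% of all tested genes. Knockout array 1 was the lowest of all 6 for 19 members, beside 30.0% of all tested genes. Knockout array 3 was the lowest for 8 members, beside 14.7% of all tested genes. The knockout SD exceeded the wild-type SD for 31 of the 33 members and for 83.4% of all tested genes. Over the members the median SD was 0.47 log2 among knockout arrays and 0.15 among wild-type arrays, and 0.27 and 0.13 over all tested genes. The highest and lowest knockout values were at least 1 log2 apart for 13 members, or 39.4%, against 14.1% of all tested genes, and for no member in wild type. The gap between knockout arrays 2 and 1 kept its direction for most members under the other scalings, with 25 above 0 when arrays were left unnormalized, 27 after median centring and 31 after cyclic loess or background correction. In the first of these the median over all genes shifted to -0.30 log2, and the members' median lay 0.50 above it.

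**Figure D3:**
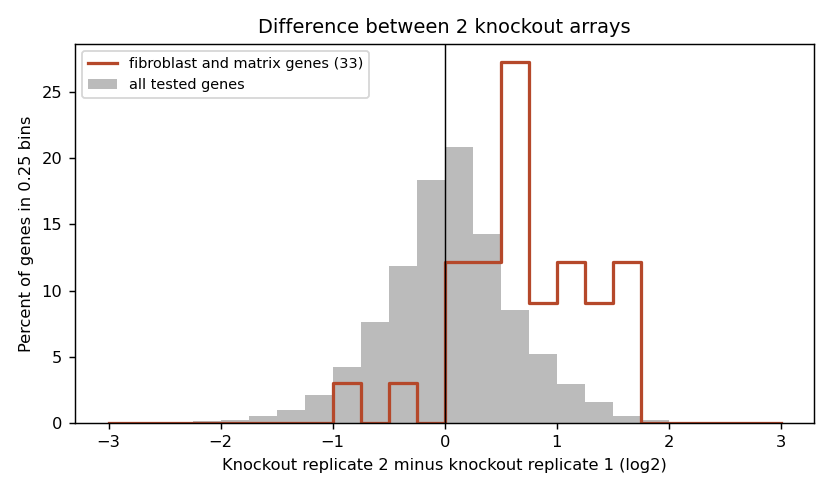
Difference between knockout replicate 2 and knockout replicate 1 (log2, horizontal axis) as percent of genes in bins of 0.25, for the 33 members (line) and all 9158 tested genes (bars). The members lie to the right of 0 for 31 of 33 genes.

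Leaving out a knockout array moved the median of the members. Without knockout array 1 the median difference of the members was 0.13 log2 and 8 of 33 members had an unadjusted p under 0.05, against 23.1% of all tested genes. Without knockout array 2 the median was -0.22 and 6 members had such a p, against 24.2% of all tested genes. Without knockout array 3 the median was 0.09 and 2 members had such a p, against 20.8%. No member passed the adjusted threshold in any of these fits, and the median over all tested probes was 0.02 log2 in each.

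Other gene lists stood beside the matrix genes on the same arrays. Endothelial markers showed the same order, with a mean of -0.42, 0.25 and 0.12 log2 relative to wild type on knockout arrays 1 to 3, beside -0.33, 0.39 and -0.01 for the fibroblast and matrix genes. None of 13 tested endothelial genes passed, their median difference was -0.08 log2, and their summed linear level ran from 15880 to 31525 in the knockout and from 23723 to 24123 in wild type. Of 9 mesothelium and capsule markers, 3 were tested, with means of -0.45, 0.34 and 0.35 on knockout arrays 1 to 3. Their summed level was 797 to 1653 in the knockout and 993 to 1253 in wild type, and the defining marker Msln was not tested. Erythroid markers were above wild type, at 1.12, 0.76 and 0.77, with 4 of 7 called higher, among them Ank1 and Klf1. The calls of Epor and Alas2 lay near the threshold (limma adjusted p = 0.0499 and 0.0481). After background correction 3 erythroid markers were called, and Alas2 was not (limma adjusted p = 0.126). Proliferation genes were at 1.26, 0.54 and 0.36, with Mcm7 called higher. Summed erythroid levels were 101733 to 128064 in the knockout and 70219 to 74418 in wild type, and summed proliferation levels were 38705 to 62071 and 25888 to 30280. The part of these cell types in the matrix values was not tested.

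Markers of white pulp reticular cells, the fibroblasts of the lymphoid zones, had a lower mean on all 3 knockout arrays, although 1 of 9 tested genes was called. Their mean relative to wild type was -1.15, -0.50 and -0.52 log2 on knockout arrays 1 to 3, and 8 of 9 tested genes lay below 0. The 1 called gene was Cr2, complement receptor 2, which B cells also express and which was counted in the B cell list too. It read 6.77 to 6.93 log2 in the knockout, where it was detected on no array, and 7.98 to 8.14 in wild type. The T zone chemokine gene Ccl21a differed by -2.12 ± 0.48 log2 (SE) and the follicular chemokine gene Cxcl13 by -1.38 ± 0.35. Neither was called (limma adjusted p = 0.0610 and 0.0845). All their knockout values lay below all wild-type values, as for 12.3% of all tested genes. The other tested markers overlapped between groups and were not called. They differed by -0.58 log2 for Madcam1, -0.39 for Icam1, -0.34 for Il7, -0.34 for Ccl19, -0.27 for Vcam1 and 0.09 for Ltbr. After background correction Ccl21a was called (adjusted p = 0.0393) and Cxcl13 was not (adjusted p = 0.0685). Summed level of the list was 14740 to 25570 in the knockout and 28180 to 33994 in wild type. Vcam1, the brightest gene in this sum at a mean of 13.86 log2, was also counted in the macrophage list.

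**Figure D4:**
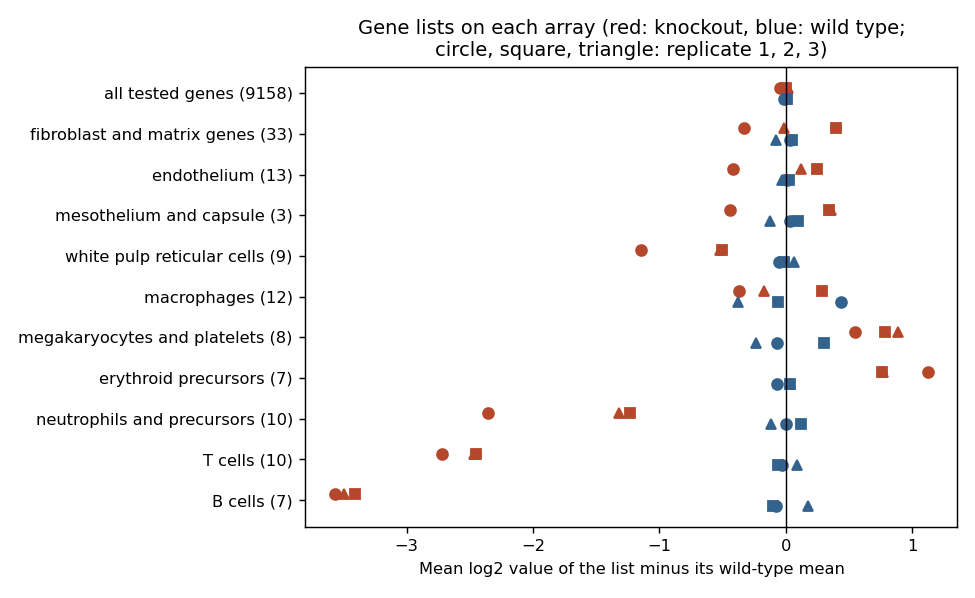
Mean log2 value of each gene list minus its wild-type mean on every array (horizontal axis), with the number of tested genes in brackets, knockout in red and wild type in blue. The fibroblast and matrix genes lie around 0 with knockout replicate 1 at -0.33 and replicate 2 at 0.39, while the B cell list lies below -3.4 on all knockout arrays.

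Macrophages and neutrophils make matrix proteases and some matrix proteins, and lymphocytes carry matrix receptors. None of 12 tested macrophage markers was called, with summed levels of 40597 to 55008 in the knockout and 40035 to 67778 in wild type. Of 10 tested neutrophil markers 5 were called lower, among them Ctsg and Ngp, and their summed level was 39886 to 101500 in the knockout and 175701 to 191929 in wild type. Summed B cell markers fell from 28173 to 32523 in wild type to 1412 to 1624 in the knockout, with Fcmr and Cd79a the deepest. Summed T cell markers fell from 14591 to 17269 to 1577 to 1988, with Cd3e and Cd3d the deepest. Fcmr and Cd3e were among the genes detected on no knockout array. The sums are not background-corrected, so background signal makes up part of these knockout levels. Only Lpl and Lep of 8 adipocyte markers, and Cela1 and Ctrl of 12 acinar pancreas markers, were tested, and none passed. Summed levels were 1249 to 2685 in the knockout and 1498 to 2215 in wild type for the former, and 2182 to 2475 and 1712 to 1934 for the latter.

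Around the members, 6 further lists of matrix biology held 92 tested genes, of which 1 was called higher and 1 lower. Over all tested genes, 1.18% were called higher and 2.66% lower, 3.84% in either direction. Mmp13, which encodes collagenase 3, an enzyme that cleaves fibrillar collagen, read 8.49, 8.73 and 8.44 log2 on knockout arrays 1 to 3, against 7.68, 7.66 and 7.56 on the wild-type arrays. All knockout values lay above the wild-type values, as for 13.2% of all tested genes. Mmp13 rose by 0.92 ± 0.13 log2 (SE; limma adjusted p = 0.0169). The call was lost without any single wild-type array, at adjusted p = 0.0954, 0.110 and 0.0866 without arrays 1 to 3, and without between-array normalization, at 0.0780. The size of the difference was 1.64 log2 after background correction and 0.64 without between-array normalization. Mmp13 was the only call among 13 tested proteases and inhibitors. Mmp9 had the largest difference of that list, at -1.19 ± 0.32 log2 (SE), and was not called (limma adjusted p = 0.0966).

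Tgfbr2, the type II receptor for transforming growth factor beta, read 10.99, 11.06 and 11.13 log2 on knockout arrays 1 to 3, against 12.44, 12.16 and 11.86 on the wild-type arrays. Every knockout value was lower, as for 12.3% of all tested genes. Tgfbr2 fell by 1.09 ± 0.17 log2 (SE; limma adjusted p = 0.0208). The call was lost without wild-type array 1 or 2, at adjusted p = 0.0948 and 0.123. Its other tested probe, detected on no knockout array, differed by -0.18 ± 0.12 log2 and was not called. T cells, whose markers fell, express this receptor too, and their part in the change was not tested. The other 15 tested genes of the pathway were not called. Over the 16 tested genes the median difference was -0.12 log2, and 6 lay above 0. Tgfbr1 differed by -0.67 ± 0.26 log2 (SE), Skil by -0.67 ± 0.28 and Smad4 by -0.65 ± 0.23 (limma adjusted p = 0.231, 0.277 and 0.193). Tgfbi, a secreted protein induced by the pathway, differed by -0.10 log2.

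None of the remaining matrix lists held a called gene. Among 13 collagen maturation enzymes the median difference was 0.05 log2, with P4hb, a subunit of prolyl 4-hydroxylase, at -0.54 ± 0.18 (SE) and Plod3, a lysyl hydroxylase, at -0.35 ± 0.29. Among 16 matrix receptors it was 0.09, with Cd44, the hyaluronan receptor, at -0.54 ± 0.19 and Itgb5 at 0.34 ± 0.32. Among 22 other matrix components it was -0.02, with Igfbp7 at -0.34 ± 0.18 and Emilin2 at 0.77 ± 0.17 (limma adjusted p = 0.0627). Among 12 other smooth muscle genes it was 0.12, with Tpm1, a tropomyosin, at 0.13 ± 0.16 and Mylk, the myosin light chain kinase, at 0.02 ± 0.32. Relative to wild type, these 4 lists had means from -0.26 to -0.20 log2 on knockout array 1 and from 0.15 to 0.48 on array 2, the proteases -0.34 and 0.30, and the TGF-beta pathway -0.50 and -0.02.

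The detection filter decided which members could be compared. Just inside it, Col1a2, Thbs1 and the second Fbln2 probe were detected on 4 arrays. Just outside, a second Fbln1 probe was detected on 2 arrays, and a Col3a1 probe, a second Timp3 probe and the Sparcl1 probe on 1. The remaining 12 untested member probes were detected on none. These 16 probes, which include all probes of 9 members, read between 6.54 and 7.32 log2, where the lowest detected signal ran from 7.22 to 7.31 over the arrays. Of the 33 tested members 31 were detected on all 6 arrays.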

How the data were processed

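Spleen RNA of 6 samples, 3 knockout and 3 wild type, was measured on Illumina MouseRef-8 v2 arrays, starting from 500 ng of total RNA per the labels' protocols. The authors deposited raw signal intensity and a detection p-value for each probe, neither normalized, according to the column names. The submitters' processing notes list GenomeStudio 2011.1 and no settings. The log2 values deposited by the authors come with no stated method. They matched quantile-normalized log2 raw signal without background correction to within 5e-07, so their scale is known. The median of every column was 7.24 log2, and genes were not centred. Quantile normalization removes a shift shared by most transcripts, and without background correction the differences of weak probes are compressed.

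From these, 12885 of 25697 probes were tested on the log2 values with lmFit and eBayes in limma 3.58.1 (R 4.3.3), with group as the only term, two-sided, and Benjamini-Hochberg adjustment over all tested probes. The fit was also run on simulated data with independent noise on every array and the same spread in both groups. In the measured data the knockout arrays spread more than the wild-type arrays, so that simulation is no check on these calls. Platform symbols were updated against a RefSeq gene table of GRCm38.p6, which changed 8 symbols, and 1719 probes had none. The files name no genome build. Promoter windows of 250 bases before to 50 after each start came from RefSeq (GRCm38.p6), with 27 of the 45 members matched.

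The members and lists were chosen with earlier results of these data known. Values on all arrays are given for members without overlap and, in each role, for the tested member with the highest mean and that with the largest difference. From further matrix lists the called genes are named, or the 2 brightest where none was called, and from cell type lists up to 2 called genes by size. Tgfbi, Tgfbr1, Skil, Smad4, Mmp9, Epor and Alas2 were named after their values were seen. So were the uncalled white pulp reticular genes and the tested adipocyte and pancreas genes. Summed levels add the linear values of a list's tested genes, without background correction. The deposited log2 values are the main ones because the members' rule names them, and neqc on the raw signal is an alternative. Alternatives were other normalizations, background correction with neqc (offset 16), other detection filters, a trended robust variance, weights per array, a block for replicate number and each array left out.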

Additional observations from a re-analysis of the deposited data

How the results depend on the processing

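Over the alternative settings the count of called members stayed at 0 except for 1, Col5a1, without the detection filter, with detection on at least 1 array and with array weights. The smallest adjusted p of a member with each array left out ran from 0.0509 to 0.247. The median difference of the members moved to -0.27 log2 without between-array normalization, where the median over all probes was -0.20. All tested probes called numbered 467, and 798 without between-array normalization, 734 with median centring, 755 with array weights, 247 with the replicate block, 505 with background correction and 113 to 638 with 1 array left out, the fewest without any wild-type array (124, 113 and 143). The split was 130 higher and 337 lower, against 10 and 788 without between-array normalization, 20 and 714 with median centring and 286 and 469 with array weights. Genes called in the further matrix lists numbered 2, against 4 without between-array normalization and 4 with median centring. Without between-array normalization these were Cd44, Tgfbr2, Smad4 and Mmp9, and with median centring Cd44, Tgfbr2, Mmp9 and Mmp13. The count was 1 with the replicate block and 0 to 5 with 1 array left out (5 without knockout array 1). The cause of these changes was not tested.

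Some uncalled differences, which lay between -0.22 and 0.33 log2, changed sign. Without between-array normalization they were Col6a1 -0.14, Col6a2 -0.22, Col15a1 -0.13, Eln -0.27, Fbln1 -0.015, Loxl1 -0.047, Serpinh1 -0.16, Mmp2 -0.29, Pdgfrb -0.21, Pdpn -0.22 and Tagln -0.058. With median centring they were Col6a1 -0.062, Col6a2 -0.14, Col15a1 -0.058, Eln -0.19, Serpinh1 -0.086, Mmp2 -0.21, Pdgfrb -0.14 and Pdpn -0.15. Col6a2 was -0.0020 with cyclic loess and -0.10 with background correction. With array weights Col6a2 was -0.048, Col14a1 0.046, Col15a1 -0.053, Pdgfra 0.017 and Tcf21 0.067, none called. With 1 array left out the ranges were -0.33 to 0.24 for Bgn, -0.36 to 0.071 for Fbln2, -0.049 to 0.44 for Thbs1, -0.54 to 0.23 for Mgp, -0.35 to 0.018 for Timp2, -0.53 to 0.41 for Pdgfra, -0.32 to 0.031 for Tcf21, -0.43 to 0.10 for Acta2, -0.19 to 0.68 for Col6a1, -0.30 to 0.24 for Col6a2, -0.069 to 0.21 for Eln, -0.0033 to 0.67 for Loxl1, -0.29 to 0.44 for Mmp2, -0.22 to 0.41 for Pdgfrb, -0.19 to 0.31 for Pdpn, -0.40 to 0.26 for Col1a1, -0.21 to 0.21 for Col14a1, -0.33 to 0.13 for Col4a1, -0.29 to 0.094 for Sparc and -0.0093 to 0.17 for Col15a1. The scalings of the gap between 2 knockout arrays were chosen after seeing the data.

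Deviations from the group means correlated at 0.50 between the samples numbered 1, -0.33 between those numbered 2 and -0.08 between those numbered 3. Since not every pair deviated together, the numbers were not taken as pairs, and of the knockout arrays only array 1 correlated best with its own number. Knockout array 2 correlated at 0.52 with wild-type array 3, and knockout array 3 at 0.56 with wild-type array 2. The source of these correlations was not tested. Under the replicate block Tgfbr2 had adjusted p = 0.0515 and Col5a1 0.0889. For the 9 members with no tested probe, no probe was detected on 3 or more arrays. Whether the transcript or the probe was weak was not tested.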
